A study of Mus musculus with 4 samples.

Results

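Myc and 9 immediate early genes (Fos, Jun, Junb, Jund, Fosl1, Egr1, Ier2, Ier3 and Dusp1) were followed in mouse Hepa 1-6 hepatocellular carcinoma cells by RNA immunoprecipitation and sequencing. The 10 genes were chosen by their Ensembl IDs as a set of short-lived mRNAs, out of 53465 IDs in the count table. All 10 passed the filter on low counts, a mean of at least 1 CPM (counts scaled to library size) over the libraries, which left 12920 genes. The study precipitated YTHDF1, a cytoplasmic reader of N6-methyladenosine in mRNA, from cells with a guide for Usp5, a deubiquitinase, and from cells with a control guide.

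The 4 groups held 1 library each. They were the YTHDF1 precipitate (RIP) and the input of cells with the Usp5 guide (genotype label Usp5 Knockdown), and the RIP and the input of cells with the control guide (genotype label WT). All cells were Hepa 1-6. The input was 10% of the lysate that went into the matching RIP. The labels do not say whether the guide-carrying cells were clones or pools, and no precipitate with a control antibody was used here, so recovery by YTHDF1 and by the beads cannot be told apart. The level of Usp5 and the liver markers were not analysed here, since the table lists genes by ID. The libraries held between 29898171 and 33941019 counts, and the 10 genes had between 77 and 8995 counts in a library.

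As a class, immediate early genes are transcribed within minutes of a growth or stress signal, from factors already present in the cell. Their mRNAs are then degraded quickly. The name is used here for the set as chosen, and its members need not all be induced alike. The libraries hold no time course, so the induction of each gene was not measured. Jun and Fos family proteins pair through leucine zippers into the AP-1 transcription factor, Myc pairs with Max and drives growth genes, and Dusp1 removes the phosphates of the MAP kinases that switch these genes on. N6-methyladenosine and its readers are among the known controls of mRNA translation and decay.

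The promoters of 4 of the genes are shown because such genes are known for short, shared control elements just before the start of transcription. The windows of Jund and Ier3 were searched as well but are not printed. Each line gives the 250 bases before the start (RefSeq, GRCm38.p6, the assembly also called mm10), with matches to 7 motifs spelled out below and to the CArG box in capitals.
Jun, chr4:95052223-95052472, minus strand: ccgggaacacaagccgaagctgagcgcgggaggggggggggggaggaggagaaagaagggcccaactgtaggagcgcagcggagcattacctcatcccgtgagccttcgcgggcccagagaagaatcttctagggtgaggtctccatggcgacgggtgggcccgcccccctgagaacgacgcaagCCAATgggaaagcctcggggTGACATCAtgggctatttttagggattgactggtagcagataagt
Junb, chr8:84978749-84978998, minus strand: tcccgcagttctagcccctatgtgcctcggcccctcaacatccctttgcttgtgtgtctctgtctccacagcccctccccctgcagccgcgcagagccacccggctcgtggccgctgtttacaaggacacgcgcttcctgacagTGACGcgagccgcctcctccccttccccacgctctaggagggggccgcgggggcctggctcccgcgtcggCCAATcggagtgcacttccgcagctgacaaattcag
Fos, chr12:85473640-85473889, plus strand: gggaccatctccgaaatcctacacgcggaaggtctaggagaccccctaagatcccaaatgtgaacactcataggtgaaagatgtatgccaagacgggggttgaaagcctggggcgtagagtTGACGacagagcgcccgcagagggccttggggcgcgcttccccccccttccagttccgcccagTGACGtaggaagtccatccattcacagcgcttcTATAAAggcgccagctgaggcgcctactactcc
Dusp1, chr17:26508473-26508722, minus strand: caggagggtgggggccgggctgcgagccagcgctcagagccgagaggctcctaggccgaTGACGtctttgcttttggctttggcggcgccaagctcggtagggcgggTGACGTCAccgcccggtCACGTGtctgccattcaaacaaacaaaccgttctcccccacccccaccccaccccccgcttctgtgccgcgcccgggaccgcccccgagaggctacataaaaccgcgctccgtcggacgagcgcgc

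Motifs were searched on both strands in 32817 promoter windows of the same length. The full cyclic AMP response element (CRE), TGACGTCA, occurred in 1.55% of them and in Dusp1. Its short form TGACG, which lies within the full element, occurred in 17.7% of windows and in Fos, Junb and Dusp1. The element TGACATCA, a variant of the AP-1 site, occurred in 2.93% of windows and in Jun, 45 to 38 bases before the start. The E-box CACGTG, a motif that Myc and Max can bind, occurred in 6.02% of windows and in Dusp1. The TATA box TATAAA occurred in 12.4% of windows and in Fos, 33 to 28 bases before the start. The CCAAT box, read as CCAAT, occurred in 33.8% of windows and was shared by Jun, Junb and Ier3. The AP-1 site TGANTCA (6.75% of windows) and the CArG box (1.47%) had no match in these letters within the windows of the 6 genes searched, which also included Jund. Jund had no match to any of the motifs in its window, and Ier3 matched the CCAAT box alone. The window of Jund lies before its most upstream RefSeq start, which may not be the main promoter. The lack of a match there therefore does not cover other starts of Jund. The counts below are of mRNA and carry no measurement of these promoters.

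Jun, Junb, Jund and Egr1 were higher in the YTHDF1 RIP than in the input in both lines, by between 1.50-fold and 3.78-fold, whereas Fos and Fosl1 were lower in the RIP in both. Myc and Dusp1 were higher in the RIP by less than 1.5-fold in each line. Ier2 and Ier3 were lower in the RIP with the Usp5 guide and higher with the control guide. Levels are given as CPM after TMM normalisation, which scales the libraries so that a trimmed mean of the log2 ratios lies near 0. The levels of different genes are compared only per kilobase. A gene passed the 2-fold rule when its ratio reached 2-fold in one direction with a 95% counting interval that left out 1. By this rule 3 of the 10 genes were higher in the RIP with the Usp5 guide (background 15.9% of all genes tested) and 3 with the control guide (background 18.4%). By the same rule 0 of the 10 were lower (background 13.7% and 15.0%). Intervals cover counting error only, and copies made by PCR are not independent molecules. Since genes scattered between libraries by more than counting error, intervals widened by that scatter are given as well (57.7 times the binomial variance between inputs and 18.4 times between RIP libraries). This scatter was measured on the same pairs of libraries and includes any change with the guide. It was taken over genes at a mean log2 CPM of 0 to 6. Myc (7.15) and Jund (7.34) lie above those levels, so their widened intervals may be too narrow.

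**Figure D1:**
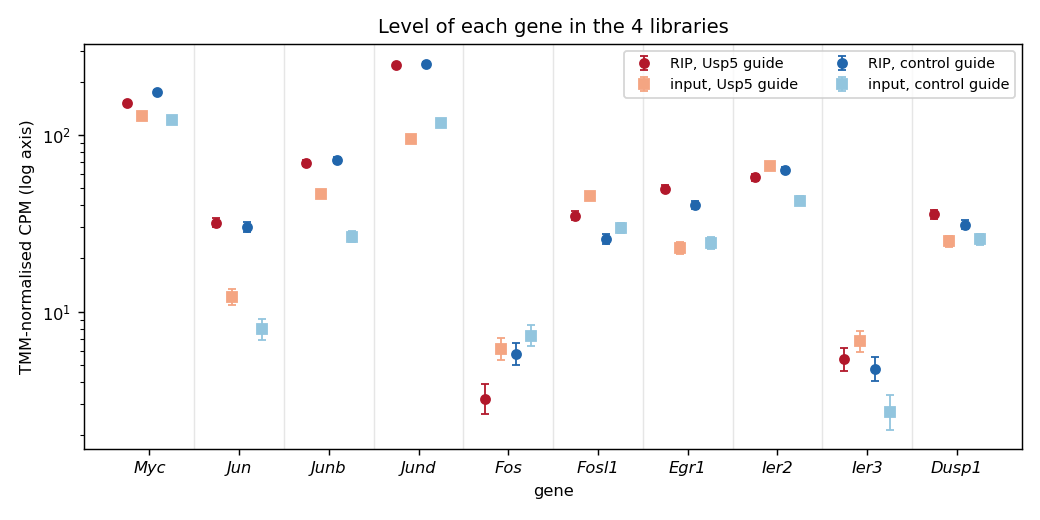
TMM-normalised CPM (log axis) of each gene in the 4 libraries, with RIP as circles and inputs as squares. Bars are 95% Poisson intervals of counting error. For Myc, Jun, Junb, Jund, Egr1 and Dusp1 both RIP circles lie above both input squares. The 2 RIP values of Jun, Junb and Jund lie close together.

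The Jun family encodes the AP-1 subunits that can pair with each other as well as with Fos proteins. Jun (ENSMUSG00000052684) had 31.9 CPM in the RIP and 12.2 CPM in the input with the Usp5 guide. It had 30.1 CPM in the RIP and 7.95 CPM in the input with the control guide. The RIP values are close to each other and the inputs lie well below both. RIP over input for Jun was 2.62-fold with the Usp5 guide (log2 1.39, counting interval 1.22 to 1.57, widened 0.16 to 2.43). With the control guide it was 3.78-fold (log2 1.92, counting interval 1.71 to 2.13, widened 0.37 to 3.15). Jun thus passed the 2-fold rule in each line, with either interval. By widened intervals 3 of the 10 genes were 2-fold higher with the Usp5 guide (background 4.25%) and 3 with the control guide (background 5.57%), the same genes as by counting intervals, and 0 were lower (background 7.55% and 9.61%).

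Jund (ENSMUSG00000071076), which is known as the least inducible Jun gene, had 247 CPM in the RIP and 94.6 CPM in the input with the Usp5 guide. It had 252 CPM in the RIP and 117 CPM in the input with the control guide. Its RIP values again differ little while the inputs are lower. The ratio was 2.61-fold with the Usp5 guide (log2 1.39, counting interval 1.32 to 1.45, widened 0.95 to 1.79) and 2.16-fold with the control guide (log2 1.11, 1.05 to 1.17, widened 0.71 to 1.49). Jun and Jund were the 2 genes of the 10 that were higher by the rule in both lines (background 6.83%), and 0 were lower in both (background 6.32%).

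Junb (ENSMUSG00000052837) had 69.4 CPM in the RIP and 46.2 CPM in the input with the Usp5 guide, and 72.3 CPM in the RIP and 26.6 CPM in the input with the control guide. The RIP libraries hold Junb at nearly one level, and the inputs are far apart. RIP over input was therefore 1.50-fold with the Usp5 guide (log2 0.59, counting interval 0.49 to 0.68, widened -0.06 to 1.19) and 2.72-fold with the control guide (log2 1.44, 1.32 to 1.56, widened 0.59 to 2.19). The gene passed the rule with the control guide alone.

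Per kilobase, Jun, Junb and Ier2 can be set side by side, since each is known to be a single exon and the annotated locus length (3187, 1840 and 1522 bases) stands for the mRNA. In the input, Ier2 had 43.9 CPM per kilobase with the Usp5 guide and 28.0 with the control guide. Junb had 25.1 and 14.5 CPM per kilobase in these inputs, and Jun had 3.81 and 2.50. The order of the levels was thus Ier2, Junb and Jun in each input. In the RIP, Ier2 (37.8 with the Usp5 guide and 41.8 with the control guide) and Junb (37.7 and 39.3) lay close together in CPM per kilobase, and Jun (10.0 and 9.45) stayed below them.

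Fos and Fosl1, the Fos family members, form AP-1 with Jun proteins and cannot pair with themselves. Fos (ENSMUSG00000021250) had 3.22 CPM in the RIP and 6.14 CPM in the input with the Usp5 guide (102 and 189 counts), and 5.77 CPM in the RIP and 7.32 CPM in the input with the control guide (206 and 209 counts). The RIP with the Usp5 guide is the lowest of the 4 values. RIP over input was 1.90-fold lower with the Usp5 guide (log2 -0.93, counting interval -1.29 to -0.58) and 1.27-fold lower with the control guide (log2 -0.34, -0.63 to -0.06). The widened intervals of Fos, -2.87 to 0.84 and -2.09 to 1.15, span no difference in both lines.

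Fosl1 (ENSMUSG00000024912) encodes Fra-1, a Fos protein without the activation domain of Fos. It had 35.0 CPM in the RIP and 45.2 CPM in the input with the Usp5 guide, and 25.9 CPM in the RIP and 29.8 CPM in the input with the control guide. Both fractions are higher with the Usp5 guide, and the RIP is the lower fraction in each line. RIP over input was 1.29-fold lower with the Usp5 guide (log2 -0.37, counting interval -0.49 to -0.26) and 1.15-fold lower with the control guide (log2 -0.20, -0.34 to -0.07). The widened intervals of Fosl1, -1.06 to 0.29 and -1.06 to 0.59, span no difference in both lines.

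Egr1 (ENSMUSG00000038418), a zinc finger transcription factor of the early growth response, had 49.8 CPM in the RIP and 22.9 CPM in the input with the Usp5 guide. It had 40.1 CPM in the RIP and 24.4 CPM in the input with the control guide. The inputs hold it at close values, and both RIP libraries lie above them. RIP over input was 2.17-fold with the Usp5 guide (log2 1.12, counting interval 0.99 to 1.25, widened 0.22 to 1.92) and 1.64-fold with the control guide (log2 0.71, 0.58 to 0.85, widened -0.19 to 1.52). Only the first passed the 2-fold rule, and the ratio of the enrichments was 1.32-fold (log2 0.41, counting interval 0.22 to 0.59, widened -0.80 to 1.61), which did not reach 2-fold.

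Myc (ENSMUSG00000022346) had 152 CPM in the RIP and 127 CPM in the input with the Usp5 guide, and 175 CPM in the RIP and 122 CPM in the input with the control guide. The inputs are close and the RIP of the control line is the highest value. RIP over input was 1.20-fold with the Usp5 guide (log2 0.26, counting interval 0.20 to 0.32, widened -0.13 to 0.64) and 1.44-fold with the control guide (log2 0.53, 0.47 to 0.59, widened 0.12 to 0.91). The counting intervals of both ratios lie above no difference, but both ratios are below 2-fold. Dusp1 (ENSMUSG00000024190) had 35.6 CPM in the RIP and 25.0 CPM in the input with the Usp5 guide, and 31.0 CPM in the RIP and 25.7 CPM in the input with the control guide. Its RIP over input was 1.42-fold with the Usp5 guide (log2 0.51, counting interval 0.38 to 0.64, widened -0.37 to 1.31) and 1.21-fold with the control guide (log2 0.27, 0.13 to 0.41, widened -0.63 to 1.09).

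Ier2 (ENSMUSG00000053560), which encodes a nuclear protein, had 57.5 CPM in the RIP and 66.9 CPM in the input with the Usp5 guide, and 63.6 CPM in the RIP and 42.5 CPM in the input with the control guide. The input with the control guide stands below the other 3 libraries. RIP over input was 1.16-fold lower with the Usp5 guide (log2 -0.22, counting interval -0.31 to -0.13, widened -0.78 to 0.32) and 1.49-fold higher with the control guide (log2 0.58, 0.48 to 0.68, widened -0.11 to 1.21). Ier3 (ENSMUSG00000003541), a stress-inducible gene with a part in cell survival, had 5.36 CPM in the RIP and 6.83 CPM in the input with the Usp5 guide (170 and 210 counts). It had 4.77 CPM in the RIP and 2.70 CPM in the input with the control guide (170 and 77 counts). RIP over input of Ier3 was 1.27-fold lower with the Usp5 guide (log2 -0.35, counting interval -0.65 to -0.05, widened -2.12 to 1.20) and 1.76-fold higher with the control guide (log2 0.82, 0.42 to 1.23, widened -1.84 to 2.71).

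**Figure D2:**
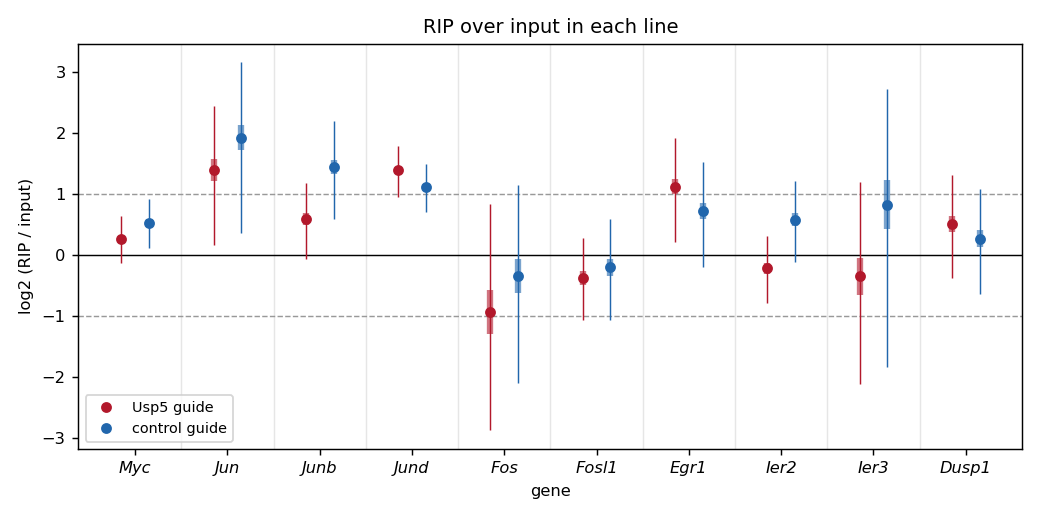
Log2 of RIP over input for each gene with the Usp5 guide (left of each pair) and the control guide. Thick bars are 95% counting intervals, thin bars are intervals widened by the scatter between libraries, and dashed lines mark 2-fold. Jun and Jund lie above 2-fold in both lines, and the thin bars of Fos and Ier3 span most of the plotted range.

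The RIP was then tested against the input in a fit of all libraries that held the line as a block, since each RIP and its input come from the same lysate. This fit has 4 libraries and 1 residual degree of freedom, and any difference in enrichment between the lines counts as error. By edgeR's quasi-likelihood test with Benjamini-Hochberg adjustment over 12920 genes, 4 of the 10 genes were higher in the RIP (background 10.2%) and 0 were lower (background 11.3%). At an unadjusted p under 0.05 the counts were 5 and 0 (background 16.5% and 17.3%). DESeq2 found 0 lower genes, both after adjustment (background 11.9%) and before it (background 16.8%). Jund had a log2 ratio of 1.25 (adjusted p = 0.000569) and Jun of 1.65 (adjusted p = 0.00668). Junb had a log2 ratio of 1.01 (adjusted p = 0.0204) and Egr1 of 0.92 (adjusted p = 0.0337). All 4 were higher in the RIP in 2 of 2 lines, as were Myc and Dusp1, which did not pass. The test was fitted to these same lines, so this direction is no separate support. Over the lines, log2 RIP over input was 1.65 ± 0.37 for Jun, 1.25 ± 0.19 for Jund, 1.01 ± 0.60 for Junb and 0.92 ± 0.29 for Egr1 (mean ± SD, n = 2).

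Myc missed the threshold at a log2 ratio of 0.39 (edgeR adjusted p = 0.115), as did Dusp1 at 0.39 (adjusted p = 0.369). Fos had a log2 ratio of -0.64 (edgeR adjusted p = 0.612) and Fosl1 of -0.29 (adjusted p = 0.492). For Ier2 and Ier3, whose lines went opposite ways, the log2 ratios were 0.18 and 0.23 (edgeR adjusted p = 0.674 and 0.884). Leaving out 1 library leaves 1 arm with a lone library, assumed to vary like the other fraction, and the line could not be kept in the fit. Without the RIP library of the Usp5 line or without that of the control line, 1 gene passed, Jund, where 2.38% and 1.93% of all genes were higher. Then Jun had an adjusted p of 0.132 and 0.110 by edgeR, with the spread taken from the 2 inputs. Without the input of the Usp5 line or that of the control line the spread came from the 2 RIP libraries, which scattered less, and 4 genes passed where 21.0% and 19.2% of all genes were higher. These last fits therefore add no support to the 4 calls. DESeq2's test left 3 of the 4 (background 9.91%), with Egr1 at an adjusted p of 0.0592.

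**Figure D3:**
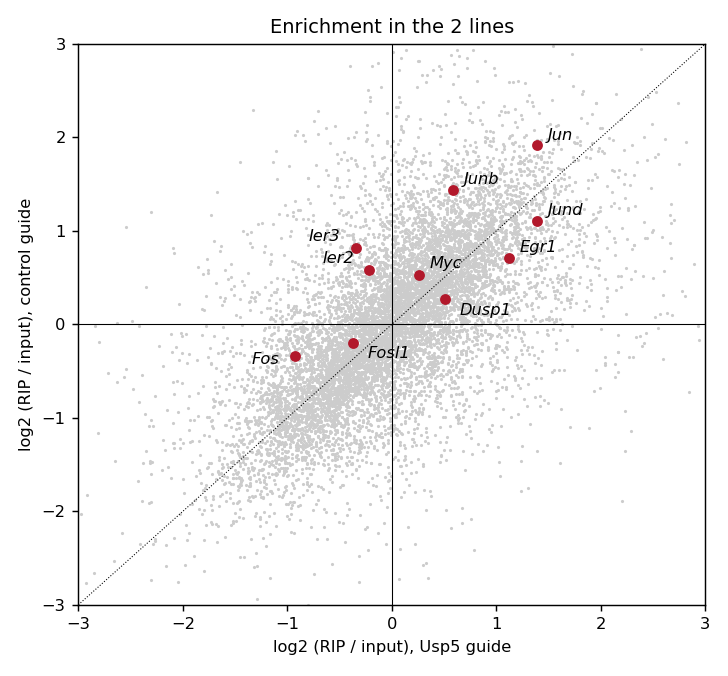
Log2 of RIP over input with the Usp5 guide (x axis) and with the control guide (y axis). Red points are the 10 genes, and grey points are 10074 other genes whose mean log2 CPM was 2 or more, of which 95 lie outside the axes. Myc, Jun, Junb, Jund, Egr1 and Dusp1 lie in the upper right, above 0 on both axes, and Ier2 and Ier3 lie in the upper left.

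The 10 genes together had a median log2 RIP over input of 0.38 with the Usp5 guide and 0.65 with the control guide, beside medians of 0.02 and 0.03 over all 12920 genes. Values above 0 were found for 6 of 10 genes with the Usp5 guide and 8 of 10 with the control guide, and for 50.7% and 51.1% of all genes. How widely genes scatter depends on their level, so each gene was also set beside genes in its own class of mean log2 CPM. Among the 986 genes between 7 and 8, the class of Myc and Jund, the middle 95% of log2 ratios ran from -1.36 to 1.14 with the Usp5 guide and from -1.54 to 1.17 with the control guide. Jund at 1.39 lay above that range with the Usp5 guide. Among the 1840 genes between 4 and 5, the class of Jun and Dusp1, the range was -1.52 to 1.58 with the Usp5 guide and -1.67 to 1.74 with the control guide. Jun at 1.92 lay above it with the control guide. The other 9 genes in each line lay within their ranges, Junb and Egr1 included. No test was made of the 10 genes as a set.

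The Usp5 guide was set against the control guide in the inputs, which measure RNA abundance, and in the RIP. In the inputs Ier3, Junb, Ier2, Jun and Fosl1 were higher with the Usp5 guide, by between 1.52-fold and 2.52-fold, and Jund was lower by 1.23-fold. Myc, Egr1, Dusp1 and Fos had counting intervals that span no difference there. In the RIP the values of Jun, Junb, Jund and Ier3 did not differ beyond counting error. Each of these ratios rests on 1 library per group without a replicate, so no test was made. Fewer cells that express a gene and less RNA per cell cannot be told apart in such bulk libraries.

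Ier3 passed the 2-fold rule in the inputs (1 of 10 genes, background 12.4%), and 0 of 10 were lower by it (background 12.1%). It had 6.83 CPM with the Usp5 guide and 2.70 CPM with the control guide, from 210 and 77 counts, a log2 ratio of 1.33 (counting interval 0.96 to 1.74). Its widened interval ran from -1.44 to 3.57, and by widened intervals 0 of the 10 genes passed in either direction (background 0.782% higher and 0.967% lower). Junb followed at a log2 ratio of 0.79 (counting interval 0.67 to 0.92, widened -0.18 to 1.72). The log2 ratio of Ier2 was 0.65 (0.55 to 0.76, widened -0.13 to 1.41) and that of Jun was 0.61 (0.37 to 0.86, widened -1.17 to 2.26). These genes are the ones whose 2 inputs stand furthest apart. Fosl1 had a log2 ratio of 0.60 (0.48 to 0.73, widened -0.34 to 1.51) and Jund of -0.30 (-0.38 to -0.23, widened -0.84 to 0.24).

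The other genes differed less between the inputs. Myc had a log2 ratio of 0.07 (counting interval -0.00028 to 0.13), Dusp1 of -0.04 (-0.19 to 0.11), Egr1 of -0.09 (-0.25 to 0.06) and Fos of -0.25 (-0.55 to 0.04). Counting intervals above 1 with no minimum fold were found for 5 of 10 genes (background 40.1%) and below 1 for 1 of 10 (background 41.3%). The median log2 ratio of the 10 genes was 0.33, beside -0.01 over all genes tested.

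In the RIP, 0 of the 10 genes passed the 2-fold rule in either direction (background 4.55% higher and 4.64% lower). The largest difference was that of Fos, at a log2 ratio of -0.84 (counting interval -1.20 to -0.49, widened -2.20 to 0.63). Fosl1 had a log2 ratio of 0.43 (0.31 to 0.56), Egr1 of 0.31 (0.21 to 0.42) and Dusp1 of 0.20 (0.08 to 0.32). Myc was lower with the Usp5 guide at a log2 ratio of -0.20 (-0.26 to -0.15, widened -0.43 to 0.03), and Ier2 at -0.15 (-0.24 to -0.06). Jun (0.08, counting interval -0.04 to 0.21), Junb (-0.06, -0.14 to 0.02), Jund (-0.03, -0.07 to 0.02) and Ier3 (0.17, -0.14 to 0.49) had log2 ratios within counting error of no difference. All widened intervals in the RIP spanned no difference (background 0.596% of all genes past the rule upwards and 0.573% downwards). The median of the 10 genes was 0.03, beside -0.01 over all genes tested.

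**Figure D4:**
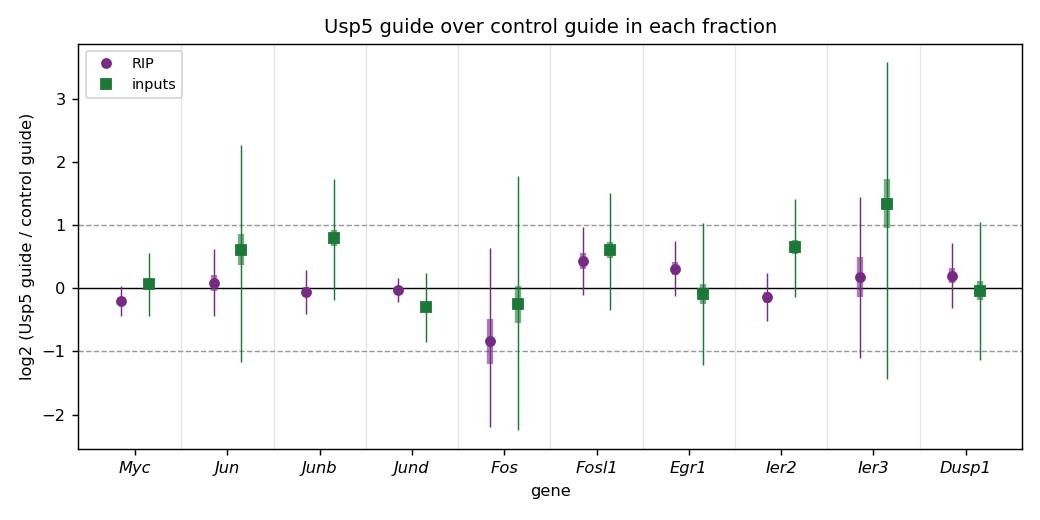
Log2 of the Usp5 guide over the control guide for each gene in the RIP (circles, left of each pair) and in the inputs (squares). Thick bars are 95% counting intervals, thin bars are intervals widened by the scatter between libraries, and dashed lines mark 2-fold. The squares of Jun, Junb, Fosl1, Ier2 and Ier3 lie above 0, and every thin bar crosses 0.

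Fosl1 was the gene with counting intervals above 1 in both fractions, at 1.35-fold in the RIP and 1.52-fold in the inputs, but both fractions come from the same cells and are not replicates of the guide. Genes of the same level differed as much. Among the 1859 genes between a mean log2 CPM of 5 and 6, the class of Junb, Fosl1, Egr1 and Ier2, the middle 95% of log2 ratios ran from -0.93 to 0.97 in the inputs and from -0.55 to 0.53 in the RIP. Among the 1375 genes between 2 and 3, the class of Fos and Ier3, it ran from -2.34 to 2.65 in the inputs and from -1.28 to 1.20 in the RIP. All 10 genes lay within the range of their class in the inputs, and all 10 in the RIP.

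The change in enrichment, RIP over input with the Usp5 guide divided by that with the control guide, was lower by at least 2-fold for 1 of 10 genes (background 13.8%) and higher for 0 (background 13.3%). That gene was Ier3, at a log2 ratio of -1.16 (counting interval -1.65 to -0.68, widened -3.71 to 1.92). Junb was next at -0.85 (-1.01 to -0.70, widened -1.84 to 0.18), then Ier2 at -0.80 (-0.93 to -0.66, widened -1.64 to 0.08). Jun (log2 ratio -0.53), Fos (-0.59) and Myc (-0.27) were also lower, whereas Egr1 (0.41), Jund (0.28) and Dusp1 (0.24) were higher. The counting intervals of these genes leave out 0. For Fosl1 the log2 ratio was -0.17 (counting interval -0.35 to 0.01). All widened intervals spanned no change (background 1.02% higher and 0.882% lower by the rule), and all 10 genes lay within the middle 95% of their class. These ratios use the same inputs as the comparison above, so the low values of Ier3, Junb, Ier2 and Jun repeat their high input ratios and are no separate observation.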

How the data were processed

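RIP and input libraries of Hepa 1-6 cells with a Usp5 or a control guide were analysed. The authors deposited raw read counts per Ensembl gene. The submitters' processing notes name HISAT2 2.1.0, featureCounts 1.6.3 and the build mm10. The handling of strand, multiple matches and duplicates is not given in the sources used here. Columns were matched to samples by the short names in the labels, with 0 left over, and the members by ID. Members and lists were chosen with earlier results of these data known.

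Counts were scaled with TMM factors (0.926 to 1.06) in edgeR 4.0.16 (R 4.3.3), and 0.5 counts, scaled to library size, were added before log2 ratios. Clopper-Pearson intervals of each pair of counts gave those of the ratios, and the ratio of enrichments used the sum of reciprocal counts. For widened intervals counts were divided by the scatter between the 2 libraries of a fraction and 0.5 was added. Levels have exact Poisson intervals. RIP was tested against input with edgeR's quasi-likelihood test, with the line, which the labels number 1 and 2 in both fractions, as a block. DESeq2 1.42.0 was an alternative. The code was tested on simulated data. All 10 members are named by rule. The reference gene table (49997 genes) gives an Ensembl ID for 0, so related gene lists, cell type markers, Usp5, Ythdf1 and genes most like Myc were not analysed here. Reads of overlapping or antisense genes may be shared.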

Additional observations from a re-analysis of the deposited data

Results flagged for a closer look

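Ier2 and Ier3 went opposite ways in the 2 lines. Log2 RIP over input of Ier2 was -0.22 with the Usp5 guide and 0.58 with the control guide, and that of Ier3 was -0.35 and 0.82. Ier2 also went opposite ways in the 2 fractions: the log2 ratio of the Usp5 guide over the control guide was -0.15 in the RIP and 0.65 in the inputs. In each case both counting intervals exclude no difference, and the differences themselves were not tested, since each group held 1 library. The same 4 libraries give both statements on Ier2. Intervals widened by the scatter between libraries span no difference for all of these ratios.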

How the results depend on the processing

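Ier3 carried the single call in the inputs and in the ratio of enrichments, and widened intervals or a mean of at least 5 CPM, which removes Ier3 (9 genes left), turned both counts to 0. All other counts by the 2-fold rule stayed within 1.5 times under DESeq2 size factors, upper-quartile factors, library totals, 2 counts added, 10 reads in all and no interval. Library totals moved the median log2 RIP over input of all genes to 0.15 with the Usp5 guide and 0.21 with the control guide, and turned the input ratio of Dusp1 from -0.04 to 0.02. They moved log2 RIP over input of Fosl1 with the control guide from -0.20 to -0.02. That of Ier2 with the Usp5 guide moved from -0.22 to -0.09, so the lower RIP values of both genes depend on the scaling. Library totals also brought Myc past the edgeR test (log2 0.55, adjusted p = 0.0463).

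Leaving out 1 library at a time gave between 1 and 4 genes higher in the RIP by the edgeR test, where between 1.93% and 21.0% of all genes were higher, and 0 lower, where between 3.44% and 18.8% were. Log2 ratios that changed sign had missed the threshold. Over the 4 fits that of Fosl1 ran from -0.57 to 0.032, above 0 without the input of the Usp5 line. That of Ier2 ran from -0.14 to 0.51 and that of Ier3 from -0.43 to 0.91, below 0 without the input of the control line. With no replicate block 3 genes passed (7.89% of all genes higher), and Junb had an adjusted p of 0.0599 by edgeR. With 10 reads in all 3 passed (5.14%), and Egr1 had 0.0619. The cause of these shifts was not tested. Depth limits Fos and Ier3 most, with 77 to 210 counts in a library.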
